A study of Mus musculus with 4 samples.

Results

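CD44-high CD4+ T cells from Ezh2-deficient mice (the KO CD44hi library) were compared with iNKT cells from wild-type mice (the WT iNKT library), gene by gene, to describe how near their transcripts lay and in which genes they did not. The comparison took the 8604 of 22477 gene symbols whose FPKM (fragments per unit of transcript length and of sequencing depth) was at least 5 in 1 of the 2 libraries. The highest of a left-out gene's 2 values came as near as 4.9994 FPKM, and the lowest kept one was 5.0075. For each gene the difference of log2(FPKM + 1) was taken, KO CD44hi minus WT iNKT, and a gene was called higher or lower where it reached 2-fold on that scale. Each group was 1 library, so the values have no replicate check and no test was made.

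The groups came from mouse spleen on the C57BL/6 background. WT iNKT cells came from wild-type mice and were sorted as binders of CD1d tetramers, which carried the lipid PBS-57, that also stained for the T cell receptor beta chain. KO CD44hi cells came from Ezh2fl/fl CD4-Cre mice and were sorted on staining for CD4, CD44 and the same receptor chain. WT CD44hi cells (wild-type mice) and KO iNKT cells (Ezh2fl/fl CD4-Cre mice), sorted in the same 2 ways, are the other libraries and are given beside the comparison. CD4-Cre is switched on while T cells develop, so the floxed allele is meant to be deleted in iNKT and CD4+ cells alike and before they leave the thymus. The labels give no age, number of animals or pooling, and leave unsaid whether the CD44hi sort shut out cells that bind the tetramer. The invariant receptor segments that would mark such cells were not analysed here.

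As background, iNKT cells are T cells with an almost fixed receptor for lipids shown on CD1d, and they leave the thymus already able to release cytokines. The zinc finger factor PLZF, encoded by Zbtb16, drives that innate programme, and the iNKT pool divides into subsets that make interferon gamma (led by T-bet), IL-4 (led by GATA3 and PLZF) or IL-17. CD44hi CD4+ T cells are antigen-experienced cells of conventional origin and hold memory, follicular helper (Tfh) and regulatory (Treg) cells. Ezh2 is a histone methyltransferase: within Polycomb repressive complex 2 (PRC2) it methylates histone H3 at lysine 27, a mark of silent genes.

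The libraries differed in depth. The spacing of low FPKM values put KO CD44hi at 4.87 times the fragments of WT iNKT, WT CD44hi at 3.69 times and KO iNKT at 1.08 times. In a transcript of 2 kilobases, 1 fragment was worth 0.102 FPKM in WT iNKT and 0.0209 in KO CD44hi. Intervals given with ratios are 95% exact counting intervals and cover neither mice nor sorts. Ezh2 itself was at 15.3 FPKM in WT iNKT against 18.5 in KO CD44hi, with 28.9 in WT CD44hi and 16.8 in KO iNKT, a value over the whole gene that keeps reads from exons outside the floxed part and so does not check the KO label. The Y-linked genes Eif2s3y and Ddx3y were at 0 or near it in both libraries compared, but at 22.7 and 11.5 FPKM in WT CD44hi, beside 46.8 FPKM of Xist, the transcript of the inactive X chromosome. WT CD44hi thus stands apart from the other 3 libraries in carrying Y-linked transcripts.

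KO CD44hi lay within 2-fold of WT iNKT in 7768 of the 8604 genes (90.3%). KO CD44hi was higher in 629 genes (7.31%) and lower in 207 (2.41%), with a median difference of 0.05 over all 8604. Against the same WT iNKT library, WT CD44hi was higher in 694 (8.08%) and lower in 319 (3.72%) of 8584 genes. Many of the higher calls were of genes that WT iNKT cells barely transcribed: WT iNKT was under 1 FPKM in 259 of the 629, and 62 of these were listed at 0. A gene that passed the filter through 1 library alone had a head start towards a call: 811 genes reached 5 FPKM only in KO CD44hi and 285 only in WT iNKT. Over the 7508 genes at 5 FPKM or more in both, an added setting chosen after seeing the data, 151 were higher (2.01%) and 161 lower (2.14%). Differences of 16-fold or more on the log2(FPKM + 1) scale numbered 76 among the higher genes and 2 among the lower.

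**Figure D1:**
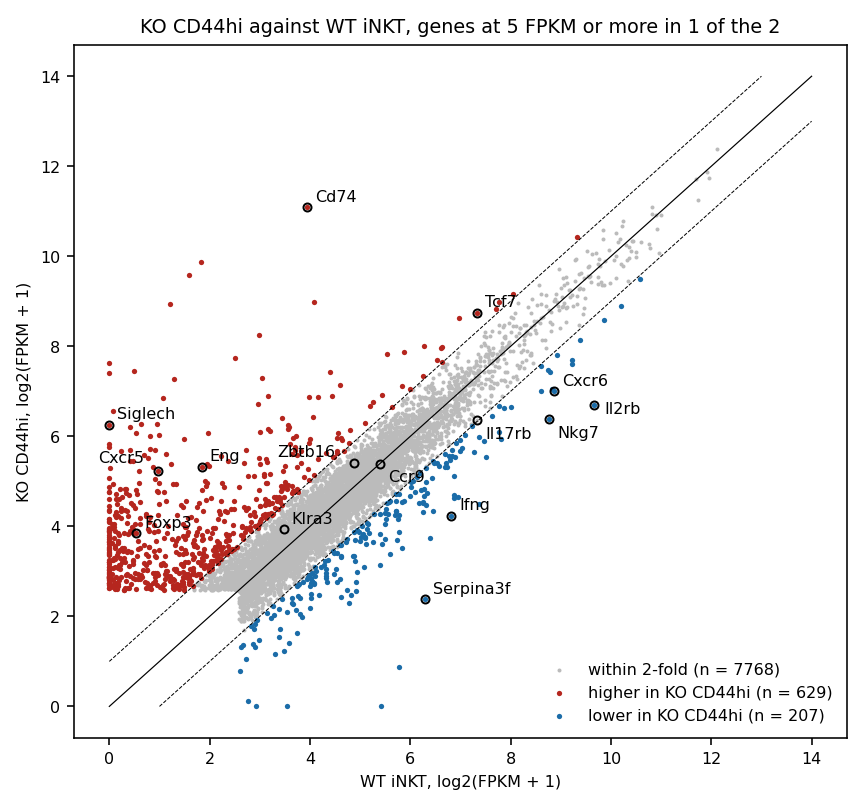
Each point is 1 of 8604 genes, with its level in WT iNKT (x axis) and in KO CD44hi (y axis), both as log2(FPKM + 1). Red points are the 629 genes at least 2-fold higher in KO CD44hi, blue points the 207 at least 2-fold lower, grey points the 7768 within 2-fold (between the dashed lines), and circles mark named genes.

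Whole-profile measures gave the 2 CD44hi libraries like distances from WT iNKT, with KO CD44hi somewhat the nearer by most of them. Whether KO iNKT was nearer than KO CD44hi depended on the genes and the measure. Over the 9019 genes that reached 5 FPKM in some library, 90% lay within 2-fold between KO CD44hi and WT iNKT, 87.6% between WT CD44hi and WT iNKT, and 92.1% between the 2 iNKT libraries. The median absolute difference from WT iNKT was 0.296 for KO CD44hi, 0.317 for WT CD44hi and 0.248 for KO iNKT. Pearson's r was taken across these genes, which share depth and composition and are not replicates. With WT iNKT it was 0.855 for KO CD44hi, 0.857 for WT CD44hi and 0.927 for KO iNKT. Over the 8381 genes that reached 5 FPKM in WT or KO iNKT, so without genes seen in CD44hi libraries alone, r was 0.920 for KO CD44hi and 0.904 for WT CD44hi, with 94.0% and 91.8% of genes within 2-fold. The 2 CD44hi libraries lay nearest to each other, with r of 0.962 and 96.9% within 2-fold over the 9019 genes. Gene by gene, KO CD44hi was nearer than WT CD44hi to WT iNKT by more than 0.5 on the log2 scale in 374 of the 8604 genes, WT CD44hi was nearer by as much in 310, and the other 7920 lay between.

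The top of the higher genes was taken by genes of antigen-presenting and other cells. Cd74, whose product escorts MHC class II molecules, was at 14.4 FPKM in WT iNKT against 2171 in KO CD44hi, with 1337 in WT CD44hi and 33.1 in KO iNKT. H2-Ab1, an MHC class II chain, was at 2.54 FPKM in WT iNKT against 934 in KO CD44hi, with 605 in WT CD44hi and 2.72 in KO iNKT. Both genes were low in the iNKT libraries and high in the CD44hi libraries, and highest in KO CD44hi. The 15 largest differences also held H2-Aa, H2-Eb1, H2-DMb1 and H2-DMb2 of the same pathway, the plasmacytoid dendritic cell genes Siglech, Cox6a2, Klk1, Pld4 and Ly6d, the plasma cell gene Igj and the haemoglobin gene Hbb-b1. Siglech, a receptor that marks plasmacytoid dendritic cells, reached 11.1 FPKM in WT CD44hi and 75.7 in KO CD44hi, and both iNKT libraries listed it at 0.

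Among 93 listed markers of B, plasma, myeloid, dendritic, red and stromal cells, 56 passed the filter, 48 of these were higher in KO CD44hi and 1 (Prdm1, which T cells also use) was lower. Over all genes compared 7.31% were higher and 2.41% lower. Under 5 FPKM in WT iNKT were 11 of 12 higher B cell markers, 2 of 2 plasma cell, 9 of 14 myeloid, 13 of 14 dendritic and 5 of 6 red cell ones. These passed the filter through KO CD44hi alone, where they are high, and nothing is read from their direction. B cell markers summed to 45.9 FPKM in WT iNKT against 4532 in KO CD44hi, with 2866 in WT CD44hi and 48.3 in KO iNKT. Much of that sum was MHC class II, shared with dendritic cells, and the genes of the B lineage alone had far lower levels. WT iNKT listed Ms4a1 (CD20) at 0, and KO CD44hi had 7.59 FPKM of it. Myeloid markers summed to 105 FPKM in WT iNKT and 1126 in KO CD44hi, red cell and platelet markers to 19.6 and 747, plasma cell markers to 59.0 and 247, and stromal markers to 22.3 and 49.7. Dendritic cell markers summed to 428 and 1029 FPKM, and the WT iNKT sum came mainly from Ly6c2, Bst2 and Ccr9, which T cells also transcribe. Cd8b1, a chain of the CD8 coreceptor, was at 0.958 FPKM in WT iNKT against 13.8 in KO CD44hi, with 9.87 in WT CD44hi and 0.296 in KO iNKT. In a bulk library, fewer cells of a type and less RNA per cell cannot be told apart, and the part of these cells in the calls below was not tested. Setting every library to the WT iNKT sum after leaving these markers out, a setting added after seeing the data, gave 573 higher and 211 lower genes. The 48 higher markers leave that count by construction, so it does not check the part of other cells in the remaining calls.

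**Figure D2:**
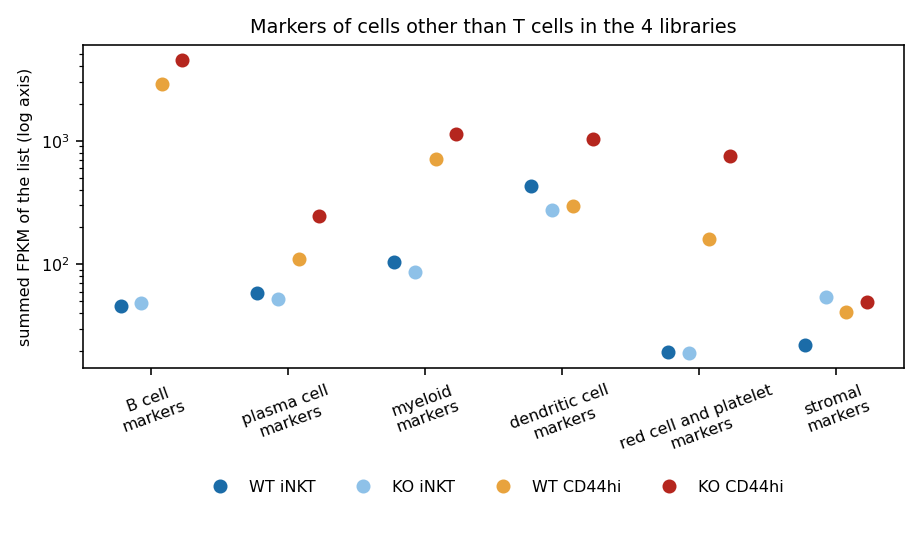
Summed FPKM (log axis) of 6 lists of markers of cells other than T cells, 1 point per library. B cell, myeloid and red cell sums are low in both iNKT libraries and high in both CD44hi libraries; KO CD44hi reaches 4532 FPKM of B cell markers against 45.9 in WT iNKT.

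Higher genes that WT iNKT cells did transcribe, at 5 FPKM or more, were led by genes known from the same cell types. Cd74 was followed by Tyrobp, an adaptor of myeloid and NK cell receptors (6.95 and 305 FPKM in WT iNKT and KO CD44hi), Fcer1g, its relative in Fc receptors (7.25 and 155 FPKM), and Irf8, a factor of dendritic and B cells (6.79 and 105 FPKM). The lysosomal and lipid genes Apoe, Ifi30, Grn, Cd68 and Unc93b1 were among the next. Plekho1, which encodes an adaptor at the membrane, differed in that KO iNKT was high too: it was at 8.02 FPKM in WT iNKT against 70.9 in KO CD44hi, with 61.6 in WT CD44hi and 35 in KO iNKT. Ptms, encoding parathymosin, had the same order, at 14.7 FPKM in WT iNKT against 117 in KO CD44hi, with 107 in WT CD44hi and 75.7 in KO iNKT. For these 2 genes WT iNKT was the lowest of the 4 libraries.

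For PLZF, KO CD44hi stood with the iNKT libraries. Zbtb16 (chromosome 9, 48654297 to 48836222, minus strand, GRCm38) was at 28.2 FPKM in WT iNKT against 41.4 in KO CD44hi, with 4.3 in WT CD44hi and 63.1 in KO iNKT. KO CD44hi and both iNKT libraries were high, and WT CD44hi alone was low. The ratio of KO CD44hi to WT iNKT was 1.47 (counting interval 1.36 to 1.59), and the difference of 0.54 fell within 2-fold. Il17rb (chromosome 14, 29996135 to 30008896, minus strand), a receptor chain for IL-25 carried by an IL-4 and IL-13 producing iNKT subset, was at 159.9 FPKM in WT iNKT against 80.9 in KO CD44hi, with 7.55 in WT CD44hi and 126 in KO iNKT. WT CD44hi was again the low library, and KO CD44hi reached 0.506 (counting interval 0.478 to 0.537) of the WT iNKT level, a difference of -0.97 that lay just inside 2-fold and becomes a lower call, at -1.02, with the median difference set to 0. Chdh (chromosome 14, 30009023 to 30040527, plus strand), choline dehydrogenase of mitochondria, was at 28.2 FPKM in WT iNKT against 27.6 in KO CD44hi, with 3.24 in WT CD44hi and 37.6 in KO iNKT. KO CD44hi was at 0.977 (counting interval 0.896 to 1.07) times WT iNKT, so that the counting interval holds equality.

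Il17rb and Chdh stand back to back on chromosome 14 and each had its lowest level in WT CD44hi, so the stretch they share is shown. Their levels differed otherwise: WT iNKT was the highest library for Il17rb and KO iNKT for Chdh. In RefSeq's promoter table (GRCm38.p6; windows of 300 bases around each start site) their windows overlap by 203 bases on opposite strands, and RefSeq's start sites lie 104 bases apart. The gene positions given with names are from GENCODE M21, whose start of Chdh differs from RefSeq's. The Il17rb window, chr14:30008847-30009146 on the minus strand, holds the first bases of Il17rb's transcript and the start of Chdh's. Capitals mark each CG pair, the substrate of DNA methylation, of which there are 32:
Il17rb: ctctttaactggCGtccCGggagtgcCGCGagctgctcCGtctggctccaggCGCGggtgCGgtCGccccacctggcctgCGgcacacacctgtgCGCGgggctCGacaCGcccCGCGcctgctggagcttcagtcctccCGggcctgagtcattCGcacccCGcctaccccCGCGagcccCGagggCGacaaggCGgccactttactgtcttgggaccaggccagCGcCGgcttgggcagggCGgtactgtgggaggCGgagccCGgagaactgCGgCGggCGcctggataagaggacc
The G and C share of the window is 72%, against a median of 52.7% over the 27025 genes of the table. Its ratio of observed to expected CG pairs is 0.823, against a median of 0.389. The Chdh window, chr14:30008750-30009049 on the plus strand, has 26 CG pairs and a ratio of 0.703. Neither chromatin nor binding was measured, and these letters are a description of the locus.

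Other genes lay near WT iNKT in KO CD44hi but not in WT CD44hi. Among genes within 0.5 of WT iNKT, those with the largest difference from WT CD44hi were Klra3, Chdh, Klra1, Gpnmb, Ccr9, Fam174b, Ly6g5b, Tmem146, Cd160 and Rbpms. Klra3 and Klra1 encode Ly49 receptors for MHC class I. Klra1 was at 10.7 FPKM in WT iNKT against 8.16 in KO CD44hi, with 0.61 in WT CD44hi and 107 in KO iNKT, and Klra3 at 10.1 FPKM in WT iNKT against 14.3 in KO CD44hi, with 0.925 in WT CD44hi and 37.5 in KO iNKT. KO iNKT stood far above WT iNKT in both, so KO CD44hi lay near the wild-type and not the KO iNKT level. Ly49 genes are near-identical copies, and reads may have been split between them. Cd160, a receptor of NK and innate-like T cells, was at 75.2 FPKM in WT iNKT against 54.5 in KO CD44hi, with 13.2 in WT CD44hi and 46.7 in KO iNKT, and KO CD44hi was 1.38-fold lower (counting interval 1.28 to 1.49) than WT iNKT. Rbpms, an RNA-binding protein gene, was at 14.4 FPKM in WT iNKT against 10.9 in KO CD44hi, with 2.14 in WT CD44hi and 21.5 in KO iNKT.

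Ccr9 had the same level in KO CD44hi and WT iNKT, and stands in 2 lists. This receptor for CCL25 guides T cells to the gut, and plasmacytoid dendritic cells carry it as well. It was at 41 FPKM in WT iNKT against 41 in KO CD44hi, with 7.91 in WT CD44hi and 8.81 in KO iNKT, with a ratio of 1.0 (counting interval 0.927 to 1.08). Beside it, Siglech was at 11.1 in WT CD44hi and 75.7 FPKM in KO CD44hi and listed at 0 in WT iNKT, and the part of plasmacytoid dendritic cells in the Ccr9 level was not tested. Plac8, a small protein of lymphoid and myeloid cells, had the same shape, at 155 FPKM in WT iNKT against 146 in KO CD44hi, with 42 in WT CD44hi and 60.1 in KO iNKT. Both genes were high in WT iNKT and KO CD44hi and low in KO iNKT and WT CD44hi.

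A further group came down to the iNKT level from a higher one in WT CD44hi. Capg, an actin-capping protein of memory and regulatory cells, was at 29.7 FPKM in WT iNKT against 30.7 in KO CD44hi, with 87 in WT CD44hi and 37 in KO iNKT. Itgb1, the integrin beta 1 chain, was at 80 FPKM in WT iNKT against 93 in KO CD44hi, with 214 in WT CD44hi and 163 in KO iNKT. S100a6, a calcium-binding protein of memory cells, was at 84.9 FPKM in WT iNKT against 93.9 in KO CD44hi, with 198 in WT CD44hi and 183 in KO iNKT. In each of these 3 genes WT CD44hi was the highest library and KO CD44hi was within 0.5 of WT iNKT on the log2 scale. Nt5e (CD73), Nrp1 (neuropilin 1), Slamf1, Socs3, Glipr2, Trim59 and Celsr1 were the others. Slamf1, a self-ligand receptor used in iNKT selection, was at 6.47 FPKM in WT iNKT against 7.08 in KO CD44hi, with 16.2 in WT CD44hi and 5.12 in KO iNKT, and Socs3, a brake on gp130 signalling, at 19.1 FPKM in WT iNKT against 23.6 in KO CD44hi, with 49.8 in WT CD44hi and 23.1 in KO iNKT.

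**Figure D3:**
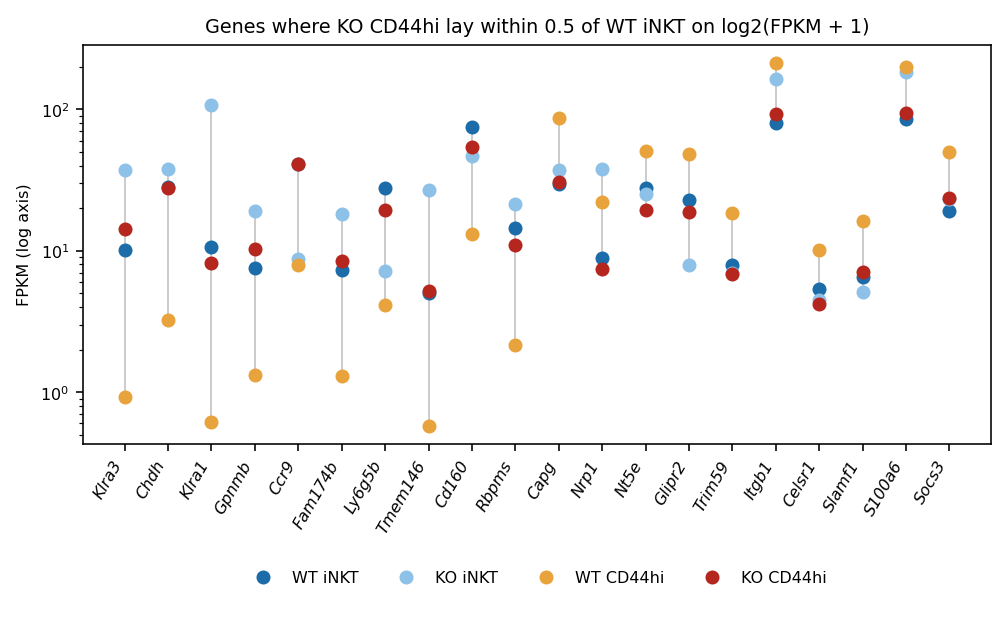
FPKM (log axis) in the 4 libraries of 20 genes within 0.5 of WT iNKT in KO CD44hi: left, the 10 that lay farthest above WT CD44hi; right, the 10 that lay farthest below it. Red (KO CD44hi) and dark blue (WT iNKT) points lie close by the rule that chose the genes; Ccr9 is at 41.0 FPKM in both and at 7.91 in WT CD44hi.

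Of 24 listed type 1 genes, 22 passed the filter: 8 were lower in KO CD44hi, 2 higher and 12 within 2-fold, with a median of -0.67 against 0.05 over all genes, of which 2.41% were lower. All 8 lower genes were at 5 FPKM or more in both libraries. In WT CD44hi 11 were lower and 3 higher, with a median of -1.05. Ifng, interferon gamma, was at 112 FPKM in WT iNKT against 17.9 in KO CD44hi, with 40 in WT CD44hi and 12.9 in KO iNKT. WT iNKT was the highest library and KO CD44hi was 6.24-fold lower (counting interval 5.55 to 7.01). Il12rb2, the signalling chain of the IL-12 receptor, was at 29.1 FPKM in WT iNKT against 5.75 in KO CD44hi, with 5.49 in WT CD44hi and 4.51 in KO iNKT. KO CD44hi, WT CD44hi and KO iNKT all lay near 5 FPKM, and KO CD44hi was 5.07-fold lower (counting interval 4.4 to 5.85) than WT iNKT. Ccl5, a chemokine stored by memory cells, was at 925 FPKM in WT iNKT against 383 in KO CD44hi, with 306 in WT CD44hi and 204 in KO iNKT. Bhlhe40, a cofactor of interferon gamma production, was at 74.9 and 22 FPKM in WT iNKT and KO CD44hi, Xcl1 at 150.0 and 74.1 FPKM, Fasl at 41.3 and 13.2 FPKM and the kinase gene Txk at 85.4 and 32.6 FPKM. All 4 were more than 2-fold lower in KO CD44hi on the scale used.

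Of the members within 2-fold, some are regulators and receptors and Tnf, which encodes the cytokine TNF, is a product (17.2 and 33.9 FPKM in WT iNKT and KO CD44hi). Tbx21, encoding T-bet, was at 70.4 FPKM in WT iNKT against 37.3 in KO CD44hi, with 27.3 in WT CD44hi and 19.5 in KO iNKT. KO CD44hi was 1.89-fold lower (counting interval 1.74 to 2.04) than WT iNKT, with a difference of -0.90 that stayed inside the 2-fold call, and KO iNKT was lower still. Runx3 was at 24.8 and 31.3 FPKM in WT iNKT and KO CD44hi, Stat4 at 47.3 and 33.5 FPKM, Il12rb1 at 63.7 and 34.6 FPKM and Il18r1 at 69.7 and 105 FPKM. Il18r1, which receives IL-18, was above WT iNKT in KO CD44hi, with a ratio of 1.51 (counting interval 1.39 to 1.64). The 2 higher genes of the list, Ccl3 and Ccl4, are chemokines that myeloid cells also make. They were at 17.7 and 10 FPKM in KO CD44hi and under 1 in WT iNKT (0.66 and 0.849), and passed the filter through KO CD44hi alone. The myeloid marker sums are given above, and the part of myeloid cells in these 2 levels was not tested.

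**Figure D4:**
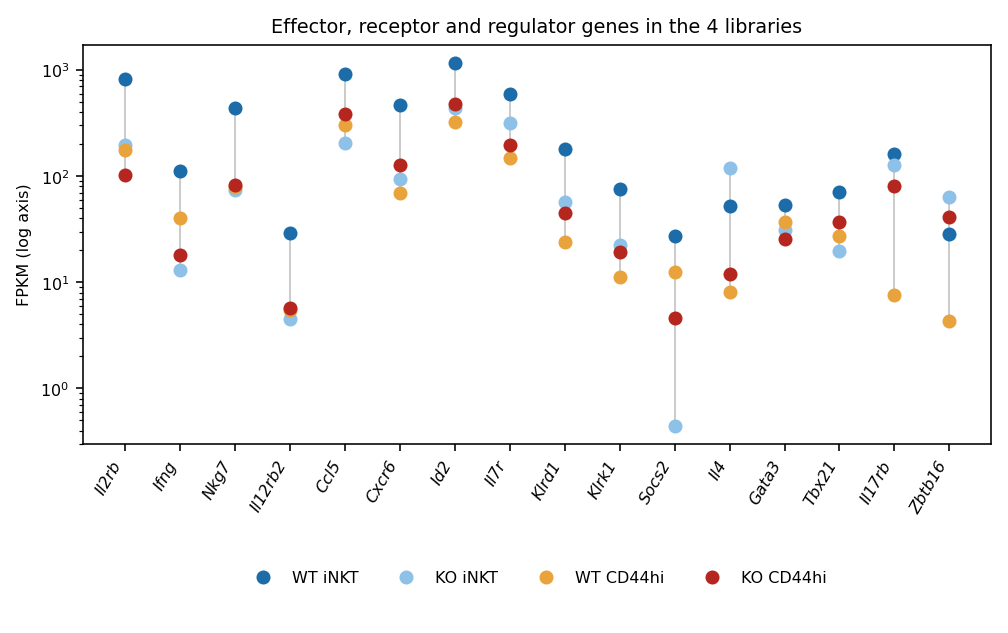
FPKM (log axis) of 16 effector, receptor and regulator genes in the 4 libraries. For the first 11 genes WT iNKT (dark blue) is the highest library, with Il2rb at 814 FPKM against 102 in KO CD44hi; for Zbtb16 KO CD44hi lies with the iNKT libraries, at 41.4 FPKM against 4.30 in WT CD44hi.

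Of 21 granule genes 16 passed the filter, with 6 lower, 1 higher (Gzma) and 9 within 2-fold (median -0.85). Over all genes compared 2.41% were lower and 7.31% higher. In WT CD44hi 8 granule genes were lower and 2 higher, with a median of -0.99. Nkg7 (chromosome 7, 43437073 to 43438249, plus strand), a granule membrane protein needed for cytotoxic release, was at 437 FPKM in WT iNKT against 82.3 in KO CD44hi, with 78.7 in WT CD44hi and 73.5 in KO iNKT. WT iNKT stood above the other 3 libraries, which lay close together, and KO CD44hi was 5.3-fold lower (counting interval 4.97 to 5.66). Prf1, perforin, was at 11.6 FPKM in WT iNKT against 3.84 in KO CD44hi, with 4.79 in WT CD44hi and 1.45 in KO iNKT, and Sytl3, which tethers granules, at 41.3 FPKM in WT iNKT against 7.83 in KO CD44hi, with 13.3 in WT CD44hi and 3.35 in KO iNKT. Gzma, granzyme A, was high in KO iNKT alone: it was at 1.72 FPKM in WT iNKT against 5.92 in KO CD44hi, with 9.97 in WT CD44hi and 89 in KO iNKT. Granule genes of broad use were near: Srgn, the granule proteoglycan, was at 533 and 499 FPKM in WT iNKT and KO CD44hi, and Ctsw, cathepsin W, at 279 and 154 FPKM.

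The letters AGGTGTGA, the consensus half-site of T-box factors such as T-bet, were searched on both strands of the promoter windows, because Tbx21 and its targets are central to the list. They stand in a window of 1.48% of the 27025 genes of the table and in 1.01% of the 6916 compared genes with a window. Nkg7 was the 1 of 6 lower type 1 genes with a window that held them, starting 14 bases before RefSeq's start site. GENCODE M21 begins the gene further upstream (the position given above), so that the match lies inside the gene by that annotation. Its window is chr7:43436888-43437187 on the plus strand (GRCm38.p6), with the match in capitals:
Nkg7: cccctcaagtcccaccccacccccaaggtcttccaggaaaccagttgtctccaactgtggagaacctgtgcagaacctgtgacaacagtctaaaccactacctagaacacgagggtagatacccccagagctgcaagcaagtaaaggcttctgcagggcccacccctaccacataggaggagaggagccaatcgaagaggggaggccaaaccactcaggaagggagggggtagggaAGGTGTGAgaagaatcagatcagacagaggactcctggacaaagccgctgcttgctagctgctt
A match of letters is not a bound site, and binding was not measured. A comparison of promoter composition between higher, lower and other genes was void, since windows were found for only 75.2% of the higher and 79.7% of the lower genes.

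Serpina3f, a protease inhibitor gene related to human antichymotrypsin, had the lowest difference of all named genes. It was at 77.6 FPKM in WT iNKT against 4.19 in KO CD44hi, with 12 in WT CD44hi and 2.74 in KO iNKT. WT iNKT was far above the rest, and KO CD44hi was 18.5-fold lower (counting interval 15.9 to 21.6). Of 12 listed serpins 5 passed the filter. In WT CD44hi 3 of these were lower, with a median of -1.22. In KO CD44hi 4 were lower, with a median of -1.44, beside 2.41% lower over all genes compared. Serpina3f was 1 of the 4 and passed the filter through WT iNKT alone. The others were its neighbour Serpina3g, at 76.1 FPKM in WT iNKT against 27.5 in KO CD44hi, with 48 in WT CD44hi and 4.51 in KO iNKT, and Serpinb9 and Serpinb6b, inhibitors that guard against granule proteases (22.2 and 9.54 FPKM and 71.4 and 22.1 FPKM in WT iNKT and KO CD44hi). The Serpina3 genes are close copies of each other, and their values are uncertain to that extent.

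NK receptors held both near genes and far ones. Of 31 listed 21 passed, with 8 lower, 4 higher and 9 within 2-fold (median -0.46), beside 2.41% lower and 7.31% higher over all genes. In WT CD44hi 13 were lower and 4 higher, with a median of -2.25. Klrb1c (NK1.1), an activating lectin receptor and the classic marker of mature iNKT cells, was at 177 FPKM in WT iNKT against 58.5 in KO CD44hi, with 14.9 in WT CD44hi and 96.2 in KO iNKT. KO CD44hi lay between WT CD44hi and WT iNKT, 3.03-fold lower (counting interval 2.86 to 3.21) than the latter. Klrd1 (CD94), the partner of NKG2 chains, was at 182 FPKM in WT iNKT against 45.3 in KO CD44hi, with 23.9 in WT CD44hi and 56.5 in KO iNKT, and Klrk1 (NKG2D), a stress ligand receptor, at 75.4 FPKM in WT iNKT against 19.1 in KO CD44hi, with 11.2 in WT CD44hi and 22.3 in KO iNKT. Both were more than 3-fold below WT iNKT in KO CD44hi, while Klrc1 (NKG2A), the inhibitory NKG2 chain, was within 2-fold, at 69.8 FPKM in WT iNKT against 49.8 in KO CD44hi, with 13.8 in WT CD44hi and 33.8 in KO iNKT. Cd226, an adhesion receptor, was at 116 and 33.7 FPKM in WT iNKT and KO CD44hi. The 4 higher genes, Klri1, Cd244, Fcgr3 and Lilrb4, were under 1 FPKM in WT iNKT, and myeloid or NK cells carry them. Of 15 NK cell and ILC1 markers 8 passed, with 4 higher and 4 lower. The defining NK gene Ncr1 (NKp46) was at 0.154 FPKM in WT iNKT and 0.565 in KO CD44hi, and Eomes at 1.5 in KO CD44hi, with 0 listed for WT iNKT.

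Among cytokine receptors, Il2rb, Il7r and Il2ra were lower, while other chains of the IL-2, IL-7 and IL-15 receptors, Il2rg and Il15ra, were within 2-fold. Il2rb (chromosome 15, 78479256 to 78495271, minus strand), the chain shared by the IL-2 and IL-15 receptors, was at 814 FPKM in WT iNKT against 102 in KO CD44hi, with 178 in WT CD44hi and 198 in KO iNKT. WT iNKT was the highest and KO CD44hi the lowest of the 4 libraries, 7.95-fold lower (counting interval 7.76 to 8.15). Il7r, the IL-7 receptor, was at 598 FPKM in WT iNKT against 195 in KO CD44hi, with 148 in WT CD44hi and 316 in KO iNKT, with both iNKT libraries above both CD44hi libraries. Il2ra (CD25) was at 23.7 and 11.1 FPKM in WT iNKT and KO CD44hi. Of 28 cytokine receptor genes 25 passed, with 17 within 2-fold (median 0.06). Lower were 4 (those 3 and Il12rb2), beside 2.41% of all genes compared, and higher were 4, beside 7.31%. The higher ones were Il6ra (10.4 and 30.9 FPKM), its signalling partner Il6st (3.91 and 28.2 FPKM), Il10ra (7.77 and 43.9 FPKM) and Ifngr2 (3.53 and 19.4 FPKM). Il2rg, the common gamma chain, was at 528 and 476 FPKM, and Il15ra, the IL-15 receptor alpha chain, at 18.4 and 13.9 FPKM.

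The genes of the JAK-STAT list that differed were 3 feedback inhibitors of cytokine signalling. Of 19 members, all of which passed, 3 were lower and 16 within 2-fold (median -0.12). Over all genes compared 2.41% were lower and 90.3% within 2-fold. The 3 were Socs1 (52.8 and 17 FPKM in WT iNKT and KO CD44hi), Socs2 (27.3 and 4.6 FPKM) and Cish (31.7 and 15.2 FPKM), each induced by cytokines in T cells. Socs2 was at 0.444 FPKM in KO iNKT and 12.4 in WT CD44hi. No STAT or JAK gene reached 2-fold, and neither did the inhibitor genes Socs3, Socs4, Socs5, Socs6 and Socs7. Stat5b, for example, was at 35.6 and 39.5 FPKM.

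Of the type 2 genes only 7 of 19 passed, with 2 lower, 1 higher and 4 within 2-fold (median -0.04). Over all genes compared 2.41% were lower and 7.31% higher. Il4 was at 52.3 FPKM in WT iNKT against 11.9 in KO CD44hi, with 8.03 in WT CD44hi and 118 in KO iNKT. Both iNKT libraries were above both CD44hi libraries, and KO CD44hi was 4.39-fold lower (counting interval 3.51 to 5.5) than WT iNKT. Gata3, the factor of type 2 cells, was at 53.5 FPKM in WT iNKT against 25.3 in KO CD44hi, with 36.8 in WT CD44hi and 31.1 in KO iNKT, lowest in KO CD44hi. Ccr4 was the higher gene, at 10.8 FPKM in WT iNKT against 29.1 in KO CD44hi, with 31.4 in WT CD44hi and 46.2 in KO iNKT, with WT iNKT below the other 3. Of the type 17 genes 8 of 20 passed, with 3 higher, 1 lower and 4 within 2-fold, beside the same shares over all genes. The median was 0.45, and 1.25 in WT CD44hi. The lower gene, Cd163l1, passed the filter through WT iNKT alone, and the higher gene Ccr6 through KO CD44hi alone. The 3 higher genes were Ccr6, Tmem176a and Tmem176b. Ccr6 was at 0.19 FPKM in WT iNKT against 10.5 in KO CD44hi, with 25.7 in WT CD44hi and listed at 0 in KO iNKT. B cells also carry Ccr6, and myeloid cells the Tmem176 pair. The part of other cells in these 3 calls was not tested.

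Of 20 listed Tfh genes 15 passed, with 9 higher, 1 lower (Sh2d1a) and 5 within 2-fold (median 1.23), beside 7.31% higher over all genes compared. Of the 9, 5 were under 5 FPKM in WT iNKT and so passed the filter through KO CD44hi alone, where they are high, and nothing is read from the direction of the list. In WT CD44hi 9 were higher and 0 lower, with a median of 2.21. Cxcr5, which leads cells into B cell follicles, was at 0.963 FPKM in WT iNKT against 36.5 in KO CD44hi, with 75.9 in WT CD44hi and 18.8 in KO iNKT. WT iNKT was the lowest and WT CD44hi the highest, and KO CD44hi was 37.9-fold higher (counting interval 21.7 to 73.5) than WT iNKT. Bcl6, the master factor of Tfh cells, was at 5.59 FPKM in WT iNKT against 14.5 in KO CD44hi, with 24.1 in WT CD44hi and 10.8 in KO iNKT, and Tox2, a nuclear factor of the same cells, at 0.658 FPKM in WT iNKT against 18.3 in KO CD44hi, with 35.4 in WT CD44hi and 25.6 in KO iNKT. Pdcd1 (PD-1) was at 10.2 FPKM in WT iNKT against 24 in KO CD44hi, with 53.6 in WT CD44hi and 187 in KO iNKT, with KO iNKT far above the others. B cells also carry Cxcr5, Bcl6 and Pou2af1. The B cell marker sum, much of it MHC class II, was 45.9 FPKM in WT iNKT, 4532 in KO CD44hi and 2866 in WT CD44hi. The part of B cells in the levels of these genes was not tested. Sh2d1a (SAP), an adaptor needed for both iNKT and Tfh development, was at 127 FPKM in WT iNKT against 59.8 in KO CD44hi, with 65.9 in WT CD44hi and 159 in KO iNKT, with both iNKT libraries above both CD44hi libraries.

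Treg genes were mixed in KO CD44hi. Of 24 listed 18 passed, with 7 higher, 3 lower and 8 within 2-fold (median 0.03). Over all genes compared 7.31% were higher and 2.41% lower. Of the 7, 4 were under 5 FPKM in WT iNKT and passed the filter through KO CD44hi alone, where they are high. Of the 3, 2 were under 5 FPKM in KO CD44hi and passed through WT iNKT alone. In WT CD44hi 9 were higher and 1 lower, with a median of 1.04. Foxp3, the master factor of Treg cells, was at 0.446 FPKM in WT iNKT against 13.4 in KO CD44hi, with 53.8 in WT CD44hi and 0.115 in KO iNKT. KO CD44hi lay below WT CD44hi and above WT iNKT, 30.1-fold higher (counting interval 15.2 to 69.9). Ctla4, a blocker of costimulation, was at 6.39 FPKM in WT iNKT against 33.8 in KO CD44hi, with 123 in WT CD44hi and 4.87 in KO iNKT, and Tigit, an inhibitory receptor, at 1.78 FPKM in WT iNKT against 20.5 in KO CD44hi, with 80.1 in WT CD44hi and 1.42 in KO iNKT. Both had the same order as Foxp3. Tnfrsf4 (OX40) was at 9.36 and 24.1 FPKM in WT iNKT and KO CD44hi and Lag3 at 0.538 and 22.4 FPKM. Of 23 inhibitory and costimulatory genes, which all passed, 9 were higher, 1 lower (Cd226) and 13 within 2-fold (median 0.09). Of these 9, 6 were under 5 FPKM in WT iNKT and likewise passed through KO CD44hi alone. Icos was at 136 and 77.5 FPKM and Cd28 at 98.8 and 57.1 FPKM, both somewhat lower in KO CD44hi and within 2-fold.

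Genes of naive and recirculating T cells were mixed. Of 24 listed 23 passed, with 7 higher, 4 lower and 12 within 2-fold (median 0.30), beside 7.31% higher and 2.41% lower over all genes. In WT CD44hi 7 were higher and 2 lower, with a median of 0.47. Tcf7, encoding TCF-1, a factor of naive, memory and Tfh cells, was at 159 FPKM in WT iNKT against 429 in KO CD44hi, with 505 in WT CD44hi and 558 in KO iNKT. WT iNKT was the lowest, and KO CD44hi was 2.69-fold higher (counting interval 2.56 to 2.83). Ccr7, which guides cells into lymph nodes, was at 13.2 FPKM in WT iNKT against 49.9 in KO CD44hi, with 64 in WT CD44hi and 34.6 in KO iNKT, with WT iNKT the lowest again. Actn1, an actin crosslinker, was at 4.13 FPKM in WT iNKT against 42.9 in KO CD44hi, with 47.9 in WT CD44hi and 18.7 in KO iNKT. Lef1, the partner of TCF-1, was within 2-fold, at 30.9 and 40.4 FPKM in WT iNKT and KO CD44hi. The 4 lower genes were Il7r, Igfbp4, Txnip and Bcl2, the last at 23.6 and 9.04 FPKM.

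Memory and trafficking lists had medians nearer 0 in KO CD44hi than in WT CD44hi. Over all genes compared 7.31% were higher and 2.41% lower. Of 23 effector memory genes, which all passed, 5 were higher, 3 lower and 15 within 2-fold (median 0.28). In WT CD44hi 10 were higher and 4 lower, with a median of 0.93. Cd44, the gene of the sorting marker, was at 83.3 FPKM in WT iNKT against 53.1 in KO CD44hi, with 54.3 in WT CD44hi and 56.3 in KO iNKT, highest in WT iNKT. S100a4 was at 76.1 FPKM in WT iNKT against 257 in KO CD44hi, with 601 in WT CD44hi and 8.5 in KO iNKT, Vim (vimentin) at 35.6 FPKM in WT iNKT against 101 in KO CD44hi, with 227 in WT CD44hi and 119.7 in KO iNKT and Itga4 (integrin alpha 4) at 10.9 FPKM in WT iNKT against 73 in KO CD44hi, with 122 in WT CD44hi and 49.4 in KO iNKT. In these 3 genes WT CD44hi was the highest library and KO CD44hi stayed more than 2-fold above WT iNKT. Of 30 trafficking genes 20 passed, with 7 higher, 3 lower and 10 within 2-fold (median 0.16; WT CD44hi 9 higher, 4 lower, 0.71). Cxcr6, which holds iNKT cells in the liver, was at 468 FPKM in WT iNKT against 127 in KO CD44hi, with 69.6 in WT CD44hi and 94.6 in KO iNKT, and KO CD44hi was 3.69-fold lower (counting interval 3.55 to 3.84) than WT iNKT. Ccr2 and Cxcr4 were the other lower ones, at 106 and 39.1 FPKM and 127 and 50.3 FPKM in WT iNKT and KO CD44hi. Cxcr3 was within 2-fold, at 234 and 151 FPKM.

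**Figure D5:**
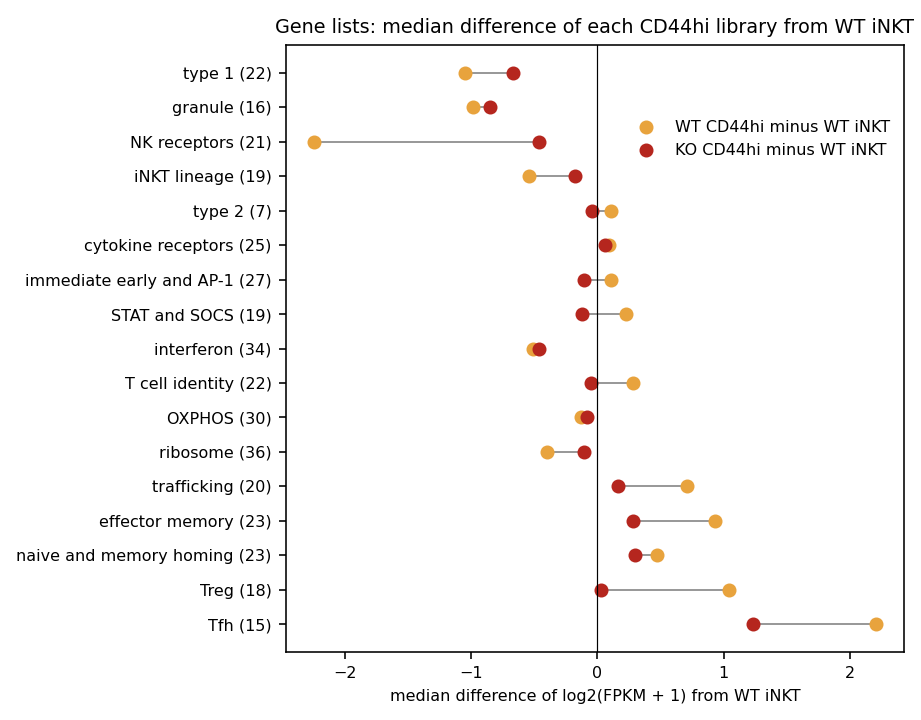
Median difference of log2(FPKM + 1) from WT iNKT over the members of 17 gene lists, in WT CD44hi (orange) and KO CD44hi (red); the number of genes that passed the filter stands beside each name. Both points of a row use the same WT iNKT library; type 1 and granule genes lie left of 0 and Tfh genes right of it in both, and the NK receptor medians are -2.25 and -0.46.

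The iNKT lineage list as a whole held both kinds of gene. Of 20 listed 19 passed, with 5 lower, 1 higher and 13 within 2-fold (median -0.18). Over all genes compared 2.41% were lower, 7.31% higher and 90.3% within 2-fold. In WT CD44hi 7 were lower and 2 higher, with a median of -0.54. The 5 lower ones in KO CD44hi were Cxcr6, Il2rb, Klrb1c, Sh2d1a and Id2. Id2, an inhibitor of E proteins needed for iNKT survival, was at 1172 FPKM in WT iNKT against 475 in KO CD44hi, with 327 in WT CD44hi and 441 in KO iNKT. WT iNKT was above the other 3 libraries, which lay close together. Egr2, which switches on Zbtb16 during selection, was the higher one and passed the filter through KO CD44hi alone. It was at 1.96 FPKM in WT iNKT against 8.2 in KO CD44hi, with 16.3 in WT CD44hi and 14.6 in KO iNKT. Fyn, Slamf6, Icos, Klf13, Rora and Cd1d1 were within 2-fold, and Cd1d1 was at 18.1 and 19.2 FPKM in WT iNKT and KO CD44hi.

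Genes shared by all T cells lay near, which does not check the sort on CD4 and CD44. All 22 passed, 21 were within 2-fold and 1, Cd4, was higher (median -0.05), beside 90.3% within 2-fold over all genes. Cd3e was at 357 and 329 FPKM in WT iNKT and KO CD44hi, Thy1 at 449 and 432 FPKM and Ptprc (CD45) at 321 and 312 FPKM. Cd4 was at 98.8 FPKM in WT iNKT against 252 in KO CD44hi, with 405 in WT CD44hi and 101 in KO iNKT. KO CD44hi was 2.55-fold higher (counting interval 2.42 to 2.69) than WT iNKT, and iNKT cells were not sorted on CD4 by the labels.

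Most genes of core cell functions lay near, as did 90.3% of all genes compared, so these counts are not read as particular to them. None of 30 oxidative phosphorylation genes, 8 GIMAP GTPase genes, which support lymphocyte survival, or 13 passing heat shock genes reached 2-fold. Of 36 ribosomal protein genes 34 were within it, of 24 passing proliferation genes 22 (Ccnd3 lower, and Aurka higher, a call lost with the median difference set to 0) and of 19 passing glycolysis genes 18 (Eno1 higher). Ccnd3, cyclin D3, was at 164 and 62.6 FPKM in WT iNKT and KO CD44hi. Of 35 interferon-induced genes 34 passed, with 4 lower, 0 higher and a median of -0.46 (WT CD44hi -0.51). Over all genes compared 2.41% were lower and 7.31% higher. The 4 were Ifi47, Igtp and Gbp6, which are interferon gamma-induced GTPases, and Oasl1. Ifi47 was at 222 FPKM in WT iNKT against 60 in KO CD44hi, with 62.8 in WT CD44hi and 122 in KO iNKT, and WT iNKT was the highest library.

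Immediate early and survival genes had differences on both sides. Of 30 immediate early genes 27 passed, with 5 lower, 5 higher and 17 within 2-fold (median -0.11). The shares over all genes were 2.41% lower and 7.31% higher, and 4 of the 5 higher genes were under 5 FPKM in WT iNKT. Lower were the phosphatase genes Dusp1, Dusp2, Dusp5 and Dusp6 and Tnfaip3, a brake on NF-kB. Dusp1 was at 453 FPKM in WT iNKT against 132 in KO CD44hi, with 209 in WT CD44hi and 329.6 in KO iNKT and Tnfaip3 at 153 FPKM in WT iNKT against 48.9 in KO CD44hi, with 101 in WT CD44hi and 93 in KO iNKT, both lowest in KO CD44hi. Higher were Egr2, Egr3, Nr4a3, Atf3 and Batf3. Egr3 was at 5.43 FPKM in WT iNKT against 20.6 in KO CD44hi, with 18 in WT CD44hi and 25.3 in KO iNKT, with WT iNKT the lowest. Fos and Junb were within 2-fold, at 167 and 108 FPKM and 693 and 419.6 FPKM in WT iNKT and KO CD44hi. Of 26 survival genes 24 passed, with 4 lower, 2 higher and 18 within 2-fold (median -0.13). Bcl2l11 (BIM), which promotes death, was at 29.4 FPKM in WT iNKT against 4.88 in KO CD44hi, with 6.95 in WT CD44hi and 7.59 in KO iNKT, and Pmaip1 (NOXA), of the same kind, was at 0.395 FPKM in WT iNKT against 42.8 in KO CD44hi, with 39.3 in WT CD44hi and 10.2 in KO iNKT. The 2 death genes thus stood in opposite order, with BIM highest and NOXA lowest in WT iNKT.

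PRC2 genes themselves were level. Of 12 listed subunits 11 passed and all 11 were within 2-fold (median -0.02), beside 90.3% over all genes compared. Ezh1, the other catalytic subunit, was at 21.7 and 21.5 FPKM in WT iNKT and KO CD44hi, Eed at 35.2 and 29.1 FPKM and Suz12 at 35.6 and 23.2 FPKM. Of 20 PRC1 and demethylase genes 19 passed, 18 of them within 2-fold, and Phc1 was higher, by 1.01, a call lost with the median difference set to 0. None of 47 developmental regulators and CDK inhibitors known as PRC2 targets reached 5 FPKM in either library. They summed to 3.81 FPKM in WT iNKT and 15.3 in KO CD44hi, and Pax5, which B cells carry, was listed at 0 and at 2.24 FPKM. Cdkn2a, a cell cycle inhibitor that PRC2 silences, was at 0.899 FPKM in WT iNKT against 1.47 in KO CD44hi, with 0.362 in WT CD44hi and listed at 0 in KO iNKT, all under 2 FPKM.

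Some genes passed the iNKT level on the far side. Here WT CD44hi lay below WT iNKT and KO CD44hi above it, or the reverse. Eng (chromosome 2, 32646595 to 32682669, plus strand), endoglin, a coreceptor for TGF beta ligands, was at 2.58 FPKM in WT iNKT against 38.9 in KO CD44hi, with 0.553 in WT CD44hi and 71.9 in KO iNKT. Both KO libraries were high and both WT libraries low, and KO CD44hi was 15.1-fold higher (counting interval 11.2 to 20.9) than WT iNKT. Sox13, a factor of gamma delta T cells, was at 0.873 FPKM in WT iNKT against 6.3 in KO CD44hi, with 0.0947 in WT CD44hi and 6.3 in KO iNKT. Cd163l1, another gene of those cells, had the other order, at 6.91 FPKM in WT iNKT against 1.8 in KO CD44hi, with 0.953 in WT CD44hi and 2.09 in KO iNKT, and most gamma delta receptor genes were not analysed here. Arhgap24, a Rac regulator, was at 0.722 FPKM in WT iNKT against 5.5 in KO CD44hi, with 0.214 in WT CD44hi and 18.3 in KO iNKT. Atp6v0d2, a proton pump subunit, was at 7.66 FPKM in WT iNKT against 30.4 in KO CD44hi, with 3.15 in WT CD44hi and 39.3 in KO iNKT. Sox13, Arhgap24 and Atp6v0d2 shared the order of Eng, with both KO libraries above both WT libraries. Psd2, Mgst3, Clstn3, Stc2, Rnf130 and Akr1c12 completed the 10 largest, with differences from 1.06 to 1.68.

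On the other side, KO CD44hi was below WT iNKT where WT CD44hi was at or above it. Igfbp4, which binds insulin-like growth factors, was at 15.4 FPKM in WT iNKT against 5.88 in KO CD44hi, with 20 in WT CD44hi and 51.2 in KO iNKT, and Cish at 31.7 FPKM in WT iNKT against 15.2 in KO CD44hi, with 33.7 in WT CD44hi and 7.23 in KO iNKT. In both genes KO CD44hi was more than 2-fold below WT iNKT, 2.62-fold lower (counting interval 2.26 to 3.02) and 2.09-fold lower (counting interval 1.86 to 2.34). The rest were smaller. Cd69, which holds T cells in tissue, was at 63.4 FPKM in WT iNKT against 34 in KO CD44hi, with 70.1 in WT CD44hi and 33.8 in KO iNKT, with both KO libraries near 34 FPKM. P2ry10, Fos, Nlrc5, Cd48, Cbx8, Gna13 and Ppp3cc had differences between -0.62 and -0.55, inside the 2-fold call.

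A last group held genes in which the KO and WT CD44hi libraries lay within 0.5 of each other and both far from WT iNKT. They numbered 354 higher and 131 lower genes. The largest higher ones were genes known from other cells, among them H2-DMb1, H2-DMb2, Itgax (CD11c), Sirpa, C1qa and Il1b. Pmaip1 stood among them too. The largest lower ones were Tmem106b, Nkg7, Bcl2l11, Ptp4a1, Lars2, Atp8a2, Il12rb2, Maff, Gtf2a1 and Ifi47. Tmem106b, a lysosomal membrane protein, was at 83.3 FPKM in WT iNKT against 12.4 in KO CD44hi, with 16.5 in WT CD44hi and 22.2 in KO iNKT. Lars2, the mitochondrial leucyl-tRNA synthetase, was at 47.3 FPKM in WT iNKT against 9.46 in KO CD44hi, with 9.18 in WT CD44hi and 13.6 in KO iNKT, and Atp8a2, a lipid flippase, at 23.6 FPKM in WT iNKT against 4.4 in KO CD44hi, with 3.32 in WT CD44hi and 4.17 in KO iNKT. In these 3 genes WT iNKT was the highest library and KO iNKT lay nearer to the CD44hi libraries than to it.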

How the data were processed

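Per the labels' protocols, RNA was taken up in TRIzol, cleaned on Picopure columns and sequenced from TruSeq RNA kit v2 libraries, which keep no strand. Each library has 1 deposited file of gene symbols and FPKM values, per the file headers. Cufflinks 2.0.2, TopHat 1.3.2, Bowtie2 2.0.0 and the mm10 build are named in the submitters' processing notes; annotation, filters and strand setting are not given in the sources used here, so overlapping genes and near-identical copies are uncertain. From the deposited FPKM, rows sharing a symbol (240 symbols) were summed, and 781 small RNA genes and 26 symbols turned into dates, found in the CD44hi files alone, were left out.

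The pseudocount was 1, and log2(FPKM + 1) understates differences of low genes; folds in the text are plain FPKM ratios. Fragments were estimated from the steps of low FPKM values over transcripts of at least 3000 bases (GENCODE M21, GRCm38), where 75.1% to 77.4% of values lay within 0.15 of a whole number. Lengths were found for 90.3% of the genes compared, and these carry 95% Clopper-Pearson intervals. The 2-fold calls and the intervals were checked on fragments simulated at the estimated depths. The step estimates themselves were not tested. Python 3.11.15, numpy 2.4.6, pandas 2.3.3 and scipy 1.17.1 were used.

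The groups were 1 library each, so comparisons are values with no test. The genes and lists were chosen with earlier results of these data known. Named genes were the largest and smallest differences over all compared genes, over those at 5 FPKM or more in WT iNKT, over those near WT iNKT, over those far from it in both CD44hi libraries and over those past it, the leading members of each list, and a set of regulators; unnamed, predicted, small RNA and receptor segment genes and symbols on several rows were left out. Other list members are named for their role, and some genes are not reported here. Alternatives were another pseudocount, other filters, other scalings, a 3-fold call and other treatments of shared symbols and small RNA genes. Promoter windows are RefSeq's (GRCm38.p6), and were found for 80.4% of the genes compared.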

Additional observations from a re-analysis of the deposited data

How the results depend on the processing

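No called difference of a named gene changed direction under the alternatives run, but these could not have reversed one. Another pseudocount cannot change a sign. Setting the median difference to 0 moved each difference by 0.05, and leaving out markers of other cells shifted the scaling by -0.01 on the log2 scale. Of 314 named genes, 41 moved beyond their counting spread with a pseudocount of 0.1 and 35 with the median difference set to 0, and 13 of 273 did with the scaling named below. Setting the median to 0 ended the calls of Aurka (1.02 to 0.97) and Phc1 (1.01 to 0.96) and made lower calls of Il17rb, Ifit1, Isg15 and Rab27a. A pseudocount of 0.1 made calls of Ifit1 and Irf4, and that scaling one of Ifit1. Of 82 counts of list members called higher or lower, 15 moved by over 1.5 times at 1 FPKM and 16 with that scaling, which takes the markers of other cells out by construction. Higher and lower calls are given as KO CD44hi, then WT CD44hi, each against WT iNKT. The higher genes numbered 1202 and 1224 at 1 FPKM or more in 1 of the 2 libraries and with no filter, 395 and 446 at 10 FPKM or more, 270 and 341 over genes that reached 5 FPKM in WT or KO iNKT, and 1085 and 1181 with each library scaled to a sum of 1000000 FPKM without markers of other cells. That scaling multiplies every value, so more genes pass the 5 FPKM filter. At 5 FPKM or more in both libraries, an alternative chosen after seeing the data, 151 were higher in KO CD44hi. With a 3-fold call 426 and 416 were higher, an order opposite to that of the 2-fold call (629 and 694), and 64 and 131 were lower. Nearness to WT iNKT, as Pearson's r for KO CD44hi then WT CD44hi, was 0.791 and 0.799 with a pseudocount of 0.1, 0.905 and 0.907 at 1 FPKM or more in any library, 0.822 and 0.823 at 10 FPKM, 0.920 and 0.904 over genes of an iNKT library, and 0.879 and 0.877 with that scaling. The share of genes within 2-fold, in the same order, was 88.3% and 85.8%, 87.6% and 86.1%, 91.0% and 88.6%, 94.0% and 91.8%, and 86.2% and 83.8%. The order of the 2 libraries by r thus depended on the genes and scaling, and KO CD44hi had the larger share within 2-fold in each of these settings. Other causes of these shifts were not tested. No paired analysis was possible because each group is 1 library, and for the same reason no library could be left out. The WT iNKT library is the shallowest, so values there under 1 FPKM rest on few fragments and limit the ratios of genes it barely holds.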
